A study of Macaca mulatta with 6 samples.

Results

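The genes described here encode the nuclear-encoded subunits of the mitochondrial respiratory chain and of ATP synthase. They were chosen by gene symbol alone: names that begin with NDUFA, NDUFB, NDUFC, NDUFS or NDUFV and a digit, with SDHA to SDHD, with UQCR, with COX4 to COX8, or with ATP5. This gave 62 genes of the 14132 named genes on the array, read by 102 probe sets (groups of probes for a transcript), and each gene was represented by its probe set of highest mean level over the 6 arrays. Of the 62, 56 are subunits: 24 of complex I, 3 of complex II, 6 of complex III, 9 of complex IV and 14 of ATP synthase, or complex V. The other 6 share only the name: the assembly factors SDHAF1 to SDHAF4 of complex II, the ATP synthase inhibitor ATP5IF1, and NDUFA4L2, a paralog of NDUFA4. NDUFA4 was placed in complex IV, where its protein is now assigned. Levels and differences are on the log2 scale throughout, so a difference of 1 is a doubling.

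The cells were dispersed from corpora lutea of rhesus macaques (Macaca mulatta), collected 12 days after the luteinizing hormone surge. They were plated on fibronectin without serum and treated from plating for 24 h with 0.1% DMSO, the vehicle, or with 1 µM T0901317, a small molecule that activates both liver X receptors (LXRs). There were 3 arrays per group, paired by replicate number per the series' design text. The sources used here give neither the animals' age nor the vehicle content of the T0901317 cultures. No purification of a cell type is named there, so each library stands for a mixture of luteal cells.

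The respiratory chain sits in the inner mitochondrial membrane. Complexes I and II pass electrons from NADH and succinate to ubiquinone, complex III passes them to cytochrome c, and complex IV passes them to oxygen. Complexes I, III and IV pump protons, and ATP synthase uses the gradient to make ATP. In the corpus luteum, mitochondria also host the first step of progesterone synthesis, in which cholesterol carried in by STAR is cleaved with electrons that arrive through ferredoxin (FDX1) and its reductase (FDXR). LXRs are best known for raising genes of cholesterol export and fatty acid synthesis.

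All 62 genes had mean levels above 4.63, the 95th percentile of the Bacillus control probe sets, which serve as a reference for dim signal. The exception on single arrays was SDHAF3, at 4.19 and 4.16 on the DMSO and T0901317 arrays of replicate 3. In the DMSO group the mean levels ran from 6.53 to 12.1 in complex I (median 10.3), from 9.05 to 9.84 in complex II and from 7.25 to 11.6 in complex III (median 10.8). Complex IV genes ran from 5.34 to 11.9 (median 10.6) and complex V genes from 6.39 to 12.4 (median 11.4). The median over all 62 was 10.3, against 6.84 over all named genes, and 49 of the 62 lay above a mean level of 9. Probe sets differ in how well they bind their target, so these values place the genes high on the array and do not rank one subunit's RNA against another's.

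**Figure D1:**
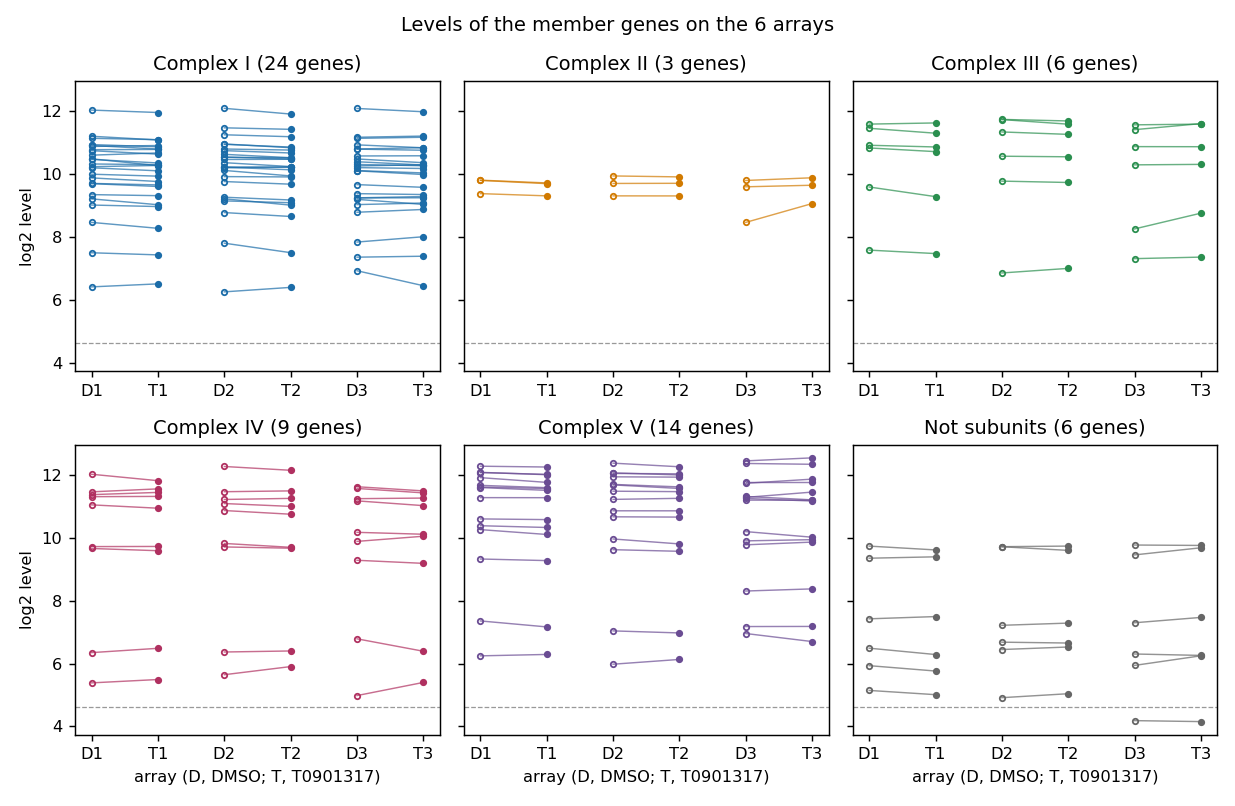
Log2 level (vertical axis) of the 62 genes on each array (horizontal axis), by complex; open circles are DMSO, filled circles T0901317, lines join the arrays of a pair, and the dashed line is the dim-signal reference of 4.63. Most lines are close to flat; the steepest, in replicate 3, are SDHC in complex II and UQCRC2 in complex III.

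The cultures held transcripts of steroidogenic cells with those of other cell types beside them, and 6 of 10 listed steroidogenic markers were measured. STAR had 10.97, 11.48 and 10.54 on the DMSO arrays of replicates 1, 2 and 3 and FDX1 had 11.03, 11.35 and 11.13, while HSD3B2 was lower, at 7.41, 6.65 and 5.94. CYP11A1 and LHCGR were not analysed here. Markers of macrophages were present too, with medians over 7 of 8 listed genes of 9.17, 9.75 and 9.31 on these arrays. Such medians hide differences between replicates. Of the 7 macrophage markers, 6 were lowest in replicate 1, and their median range over the DMSO arrays was 1.57. That range was 1.81 for T and NK cells, 1.03 for pericytes and smooth muscle, 0.72 for steroidogenic cells and 0.56 for endothelium, against 0.46 for all named genes. Markers of endothelium had medians over 7 of 8 genes of 7.14, 7.47 and 7.07, with KDR alone below the dim-signal reference. Markers of pericytes and smooth muscle had medians over 4 of 7 genes of 8.73, 7.96 and 7.99. Those of T and NK cells had medians over 3 of 7 genes of 7.15, 7.81 and 8.96, with CD7 below the reference, and those of red blood cells over 3 genes had 6.2, 6.25 and 6.51. In such mixed samples, fewer cells of a type and less RNA per cell cannot be told apart. With T0901317 the marker medians differed by 0.21 for endothelium, -0.019 for macrophages, -0.24 for pericytes and smooth muscle -0.19 for T and NK cells, -0.077 for red blood cells and -0.14 for the 6 steroidogenic markers. In limma's fit 0 of these markers passed the threshold used for the members. An unadjusted p under 0.05 was found for 6 of the 30, a larger share than the 3.73% of all named genes. Of these, CDH5 was higher with T0901317, and TYROBP, CSF1R, CNN1, CSPG4 and GNLY were lower. The part of the cell mixture in the results was not tested.

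T0901317 changed none of the respiratory chain genes past the threshold. In limma's paired fit over all 52766 probe sets, 0 of the 62 were higher and 0 lower at a Benjamini-Hochberg adjusted p under 0.05. The same fit called 0.113% of named genes higher and 0.0637% lower. At an unadjusted p under 0.05, 1 of the 62 passed, in the lower direction. The same held for 3.73% of named genes in either direction, for 2.41% in the lower one, and for 4.73% in the lower one among named genes with a mean level above 9. Over the other settings of this fit the number of members was between 0 and 3. A p that misses the threshold does not show that a gene kept its level. The LXR target MYLIP had the highest change of all named genes, so it marks the upper end of the responses on these arrays and not a typical one. It had 7.50, 8.01 and 8.03 with DMSO and 9.99, 10.05 and 10.68 with T0901317, a rise of 2.39 ± 0.11 (limma's SE, n = 3 pairs; adjusted p = 4.9e-06). The changes of the 62 genes ran from -0.16 to 0.26, with 9 over 0.1 in size.

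Under limma's model, which borrows the spread of other probe sets, the intervals give a range for an unseen change. For all 62 genes the 95% interval of the change, from limma and unadjusted for the number of genes, lay within a 1.5-fold change in either direction. The outermost bounds were 0.766 and 1.46 times the DMSO level. For 54 of the 62 the interval lay within 1.25-fold. The same held at 1.5-fold for 97.6% of all named genes, and at 1.25-fold for 50.3% of them, but for 88.0% of the 2599 named genes with a mean level above 9, so narrow intervals were shared by bright genes in general. These bounds rest on the borrowed spread and on the pairing. UQCRC2, for example, had an SD of 0.41 over its pair differences and a limma SE of 0.13. The SD describes single pairs and the SE their mean, so the gap between them overstates the borrowing. An interval from the pairs of UQCRC2 alone would be wider and was not computed. Without the replicate number as a block, 41 of the 62 intervals lay within 1.5-fold and 0 within 1.25-fold.

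**Figure D2:**
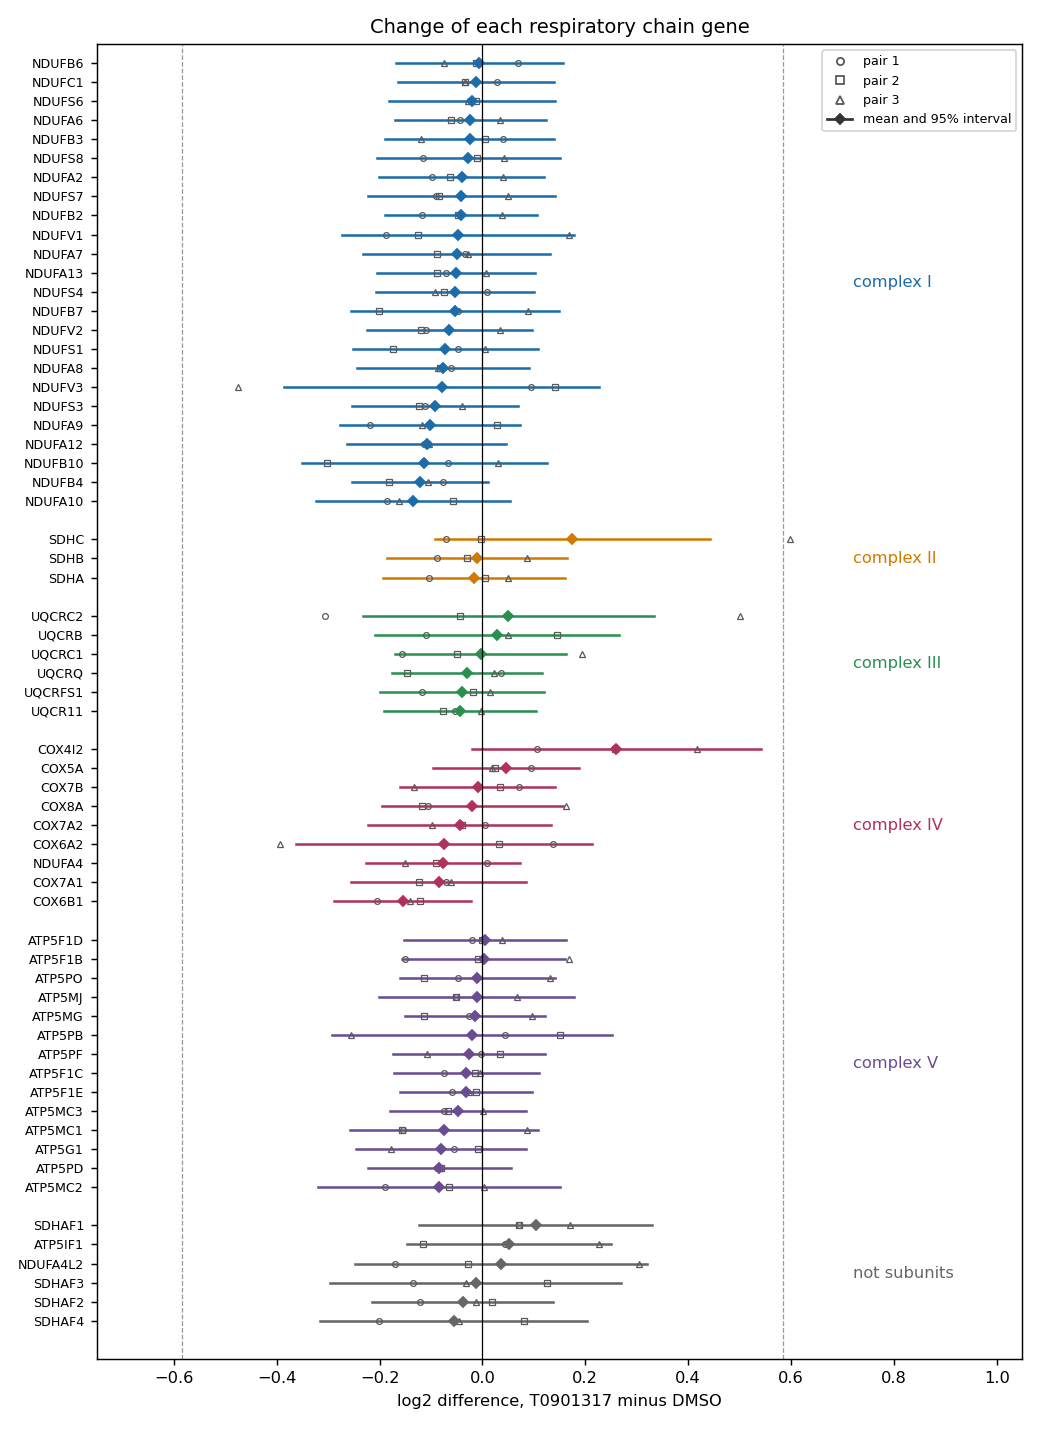
Log2 difference, T0901317 minus DMSO (horizontal axis), for each of the 62 genes (vertical axis, grouped by complex). Diamonds are means with limma's 95% interval, open symbols are the 3 pairs, and dashed lines mark 1.5-fold; every interval lies inside them, and COX6B1 is the gene whose interval excludes 0.

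Complex I oxidises NADH and is the largest of the complexes, with a peripheral arm that holds the redox centres and a membrane arm that pumps protons. All 24 of its measured genes had a mean change below 0, from -0.13 to -0.0062, with a median of -0.052 and none past the threshold. This one-sidedness depended on the scaling chosen: after quantile normalization of the 6 arrays, 17 of the 24 were below 0 and the median was -0.026. Among named genes with a mean level above 9, 73.5% lay below 0 as deposited and 53.8% after quantile normalization. Median centring of each array moved values the other way, with 82.9% of these bright genes below 0.

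The lowest values in complex I were those of NDUFA10 and NDUFB4, accessory subunits of the membrane arm. NDUFA10 had 9.21, 9.14 and 9.19 on the DMSO arrays of replicates 1, 2 and 3, and 9.02, 9.09 and 9.03 on the matching T0901317 arrays. NDUFB4 had 12.03, 12.08 and 12.08 with DMSO and 11.95, 11.90 and 11.97 with T0901317. In both genes every DMSO array lay above every T0901317 array, and they were the only members whose groups did not overlap. Over all named genes 0.969% had groups that did not overlap in this direction and 0.934% in the other, and of those above level 9, 0.923% in this one. The changes were -0.13 ± 0.086 for NDUFA10 and -0.12 ± 0.060 for NDUFB4 (limma's SE, n = 3 pairs; limma adjusted p = 1.00 for both), or 0.911 and 0.920 times the DMSO level. Their other probe sets, at mean levels of 6.69 and 6.58, had changes of -0.015 and -0.072.

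The redox subunits of complex I that were measured had a range over the DMSO arrays wider than any of their pair differences. NDUFV1 binds the flavin that takes electrons from NADH. It had 8.46, 8.77 and 7.84 with DMSO and 8.27, 8.65 and 8.01 with T0901317, with pair differences of -0.19, -0.12 and 0.17. NDUFS1, the largest iron-sulfur subunit, had 9.70, 10.11 and 9.24 with DMSO and 9.65, 9.94 and 9.24 with T0901317. In both genes replicate 3 was lowest in each group and the groups overlapped. The iron-sulfur subunits NDUFS7 and NDUFS8 had changes of -0.041 and -0.028. NDUFV2, which also carries an iron-sulfur cluster, had -0.065. NDUFV3, whose probe set was the dimmest of complex I, had pair differences of 0.095, 0.14 and -0.48.

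At the other end of complex I, NDUFB6 and NDUFC1, accessory subunits of the membrane arm, had changes near 0. NDUFB6 had 10.60, 10.53 and 10.11 with DMSO and 10.67, 10.51 and 10.03 with T0901317, a change of -0.0062 ± 0.074. NDUFC1 had 10.87, 10.79 and 10.79 with DMSO and 10.90, 10.76 and 10.75 with T0901317, a change of -0.013 ± 0.069. Some small differences repeated closely between pairs. The accessory subunit NDUFA12, picked out after its values were seen, had pair differences of -0.11, -0.11 and -0.10, with an SD of 0.0045. Such an SD from 3 values is itself poorly known, and limma's SE for NDUFA12, which borrows the spread of other probe sets, was 0.071 (adjusted p = 1.00).

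Complex II links the citric acid cycle to the chain and pumps no protons. SDHA, the flavoprotein that oxidises succinate, had 9.79, 9.70 and 9.59 with DMSO and 9.69, 9.70 and 9.64 with T0901317. SDHB, the iron-sulfur subunit, had 9.80, 9.94 and 9.79 with DMSO and 9.71, 9.91 and 9.88 with T0901317. Their changes were -0.016 ± 0.081 and -0.011 ± 0.080. SDHC, a membrane anchor that helps to bind ubiquinone, had 9.37, 9.30 and 8.46 with DMSO and 9.30, 9.30 and 9.06 with T0901317. Its DMSO array of replicate 3 stood apart from the other 5 arrays, and the pair differences were -0.071, -0.0019 and 0.60. The change of SDHC was 0.18 ± 0.12 (limma adjusted p = 1.00), and -0.036 without replicate 3. A second, dimmer probe set of SDHC had -0.15, -0.15 and -0.059 in the pairs. Of the 3 genes, 2 had changes below 0, and 0 without replicate 1. SDHD was not analysed here.

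Complex III takes electrons from ubiquinol. Its 6 genes had a median change of -0.017, with 4 below 0 and 2 above, and none past the threshold. UQCRC1, a core protein, had 11.45, 11.73 and 11.41 with DMSO and 11.29, 11.68 and 11.60 with T0901317, a change of -0.0036 ± 0.076. UQCRC2, its partner, had 9.58, 9.77 and 8.25 with DMSO and 9.28, 9.73 and 8.75 with T0901317. Replicate 3 was lowest in both groups for UQCRC2, and the pair differences were -0.31, -0.043 and 0.50. Its mean change of 0.050 ± 0.13 became -0.17 without replicate 3 and 0.23 without replicate 1 (limma adjusted p = 0.73 or more in every setting). Both core proteins had their lowest pair difference in pair 1 and their highest in pair 3.

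UQCRFS1, the Rieske iron-sulfur protein, had 10.83, 10.56 and 10.29 with DMSO and 10.71, 10.54 and 10.30 with T0901317, a change of -0.040 ± 0.073. UQCRB, named for binding ubiquinone, had 7.58, 6.85 and 7.31 with DMSO and 7.47, 7.0 and 7.36 with T0901317. The small subunit UQCR11 had 10.91, 11.33 and 10.87 with DMSO and 10.86, 11.26 and 10.86 with T0901317. For these 3 genes the groups overlapped, and the range over the DMSO arrays was wider than any pair difference. CYC1, the cytochrome c1 of the complex, falls outside the name rule and had a change of -0.016 ± 0.069.

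Complex IV, cytochrome c oxidase, holds several subunits with alternative isoforms, and both the lowest and the highest change among the 62 genes belonged to it. COX6B1, a subunit on the intermembrane face, had 12.01, 12.26 and 11.56 with DMSO and 11.81, 12.14 and 11.42 with T0901317. The pair differences were -0.20, -0.12 and -0.14, and the groups overlapped, since the replicates lay further apart than the pairs. The change was -0.16 ± 0.061 (0.898 times; limma unadjusted p = 0.027, adjusted p = 1.00). It was the 1 gene of the 62 with an unadjusted p under 0.05, and over the other settings its change ran from -0.18 to -0.12 and its adjusted p was at least 0.38.

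COX4I2, the isoform of subunit IV associated with low oxygen and with lung, had 5.39, 5.64 and 4.98 with DMSO and 5.49, 5.90 and 5.40 with T0901317. The pair differences were 0.11, 0.26 and 0.42, and the groups overlapped. The change was 0.26 ± 0.13 (1.20 times; limma adjusted p = 1.00), on a probe set not far above the dim-signal reference of 4.63. NDUFA4L2, known as a gene that hypoxia induces, had 5.93, 6.68 and 5.94 with DMSO and 5.76, 6.65 and 6.24 with T0901317, with pair differences on both sides of 0. The ubiquitous COX4I1 was measured only by probe sets that carry several gene names and is not described.

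The muscle-type isoforms gave different pictures. COX7A1, known from heart and skeletal muscle, had 9.65, 9.81 and 10.17 with DMSO and 9.58, 9.69 and 10.11 with T0901317, while its ubiquitous counterpart COX7A2 had 9.71, 9.70 and 9.28 with DMSO and 9.72, 9.66 and 9.18 with T0901317. The replicates thus ran in opposite orders for the isoforms: replicate 3 had the highest COX7A1 and the lowest COX7A2 in both groups. Changes with T0901317 were -0.085 ± 0.078 and -0.044 ± 0.081. COX6A2, another muscle-type isoform, had 6.35, 6.37 and 6.78 with DMSO and 6.48, 6.40 and 6.39 with T0901317. The highest array there was the DMSO array of replicate 3.

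The remaining subunits of complex IV had differences under 0.2 in every pair. COX5A, a subunit on the matrix face, had 11.45, 11.46 and 11.24 with DMSO and 11.55, 11.48 and 11.25 with T0901317, a change of 0.046 ± 0.064. NDUFA4 had 11.30, 11.08 and 11.17 with DMSO and 11.31, 10.99 and 11.01 with T0901317, a change of -0.077 ± 0.069. COX8A had 11.04, 10.86 and 9.88 with DMSO and 10.93, 10.74 and 10.04 with T0901317, so replicate 3 was lowest in both groups, and its change was -0.020 ± 0.080. COX7B had a change of -0.0092. The median over the 9 genes of complex IV was -0.044, with 7 below 0 and 2 above.

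ATP synthase has a catalytic head, a rotor with a ring of c subunits and a peripheral stalk. Its 14 genes had changes from -0.084 to 0.0052, a median of -0.028, and none past the threshold. All 14 intervals lay within 1.25-fold. ATP5F1B, the catalytic beta subunit, had 11.90, 11.93 and 11.28 with DMSO and 11.75, 11.92 and 11.44 with T0901317, a change of 0.0024 ± 0.072. ATP5F1D, the delta subunit of the rotor, had 10.59, 10.85 and 9.90 with DMSO and 10.57, 10.85 and 9.93 with T0901317, a change of 0.0052 ± 0.072. On these probe sets replicate 3 was lowest in each group, and the range over the DMSO arrays was wider than any pair difference. The second, dimmer probe set of ATP5F1B was highest in replicate 3. It had 8.28, 8.29 and 9.35 with DMSO and 8.23, 8.33 and 9.12 with T0901317. The second probe set of ATP5F1D was lowest in replicate 3 in both groups. The gamma and epsilon subunits of the rotor, ATP5F1C and ATP5F1E, had changes of -0.031 and -0.032.

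The c subunit is encoded by several genes that yield the same mature protein. ATP5MC2 had 7.35, 7.04 and 7.17 with DMSO and 7.16, 6.97 and 7.18 with T0901317, a change of -0.084 ± 0.11. ATP5MC1 and ATP5MC3 had -0.075 and -0.047. A further entry, ATP5G1, had -0.081. Its symbol is an older name of ATP5MC1 and RefSeq's table lacks its gene number, which leaves unclear which gene it reads. Near-identical copies of such short genes could share probes, and the c subunit values may overlap.

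Among stalk and membrane subunits, ATP5PD, the d subunit, had 11.59, 11.69 and 11.24 with DMSO and 11.50, 11.61 and 11.16 with T0901317. Its pair differences were -0.089, -0.080 and -0.082, and its change of -0.084 ± 0.063 did not pass (limma adjusted p = 1.00). ATP5PO, which joins the stalk to the head, had -0.0099, and ATP5PF, another stalk subunit, had -0.025. ATP5MJ, a small membrane subunit, had 9.32, 9.62 and 8.30 with DMSO and 9.27, 9.56 and 8.37 with T0901317, again lowest in replicate 3.

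The other 6 genes chosen by name had changes from -0.055 to 0.10, with 3 above 0 and 3 below. SDHAF1, an assembly factor that helps to mature SDHB, was above 0 in all 3 pairs, by 0.071, 0.070 and 0.17, with a change of 0.10 ± 0.10 (limma adjusted p = 1.00). ATP5IF1, which stops ATP synthase from running in reverse, had 0.052 ± 0.090. SDHAF2, which helps to attach flavin to SDHA, had 9.73, 9.71 and 9.76 with DMSO and 9.61, 9.73 and 9.75 with T0901317.

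In all, 52 of the 62 genes (83.9%) had a mean change below 0, with a median of -0.039. Over all named genes 58.6% lay below 0 with a median of -0.021, and over named genes above level 9 the figures were 73.5% and -0.039. After quantile normalization 36 of the 62 (58.1%) lay below 0, beside 53.6% of all named genes and 53.8% of those above level 9, and the median of the 62 was -0.0067. After median centring of each array 54 of the 62 (87.1%) lay below 0, with a median of -0.062. The shares there were 66.8% of all named genes and 82.9% of those above level 9. Without replicate 1, 41 of the 62 (66.1%) lay below 0, beside 50.0% of all named genes and 56.5% of those above level 9. In 14 of the 62 all 3 pairs were below 0, against 15.8% of all named genes and 24.7% of those above level 9, and all 14 were among the 49 members above that level. In 3 all pairs were above 0 (COX4I2, COX5A and SDHAF1), against 9.43% of named genes and 4.62% of those above level 9.

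The pairs differed from one another. The median difference of the 62 genes was -0.071 in pair 1, -0.048 in pair 2 and 0.0047 in pair 3, with 47, 47 and 29 genes below 0. These were 75.8%, 75.8% and 46.8% of the 62, against 63.7%, 54.4% and 46.8% of all named genes. Among named genes above level 9 the shares were 83.5%, 57.4% and 52.7%. The medians of all named genes were -0.067, -0.014 and 0.014 in the same pairs, and those of named genes above level 9 were -0.095, -0.020 and -0.011. By complex, pair 1 ran from -0.11 in complex III to 0.0089 in complex IV, pair 2 from -0.078 in complex I to -0.0019 in complex II, and pair 3 from -0.098 in complex IV to 0.086 in complex II. A difference over 0.3 in size occurred in 7 genes, and in 5 of them in pair 3 alone: NDUFV3, SDHC, COX4I2, COX6A2 and NDUFA4L2. In 20 genes all 3 differences were under 0.1.

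**Figure D3:**
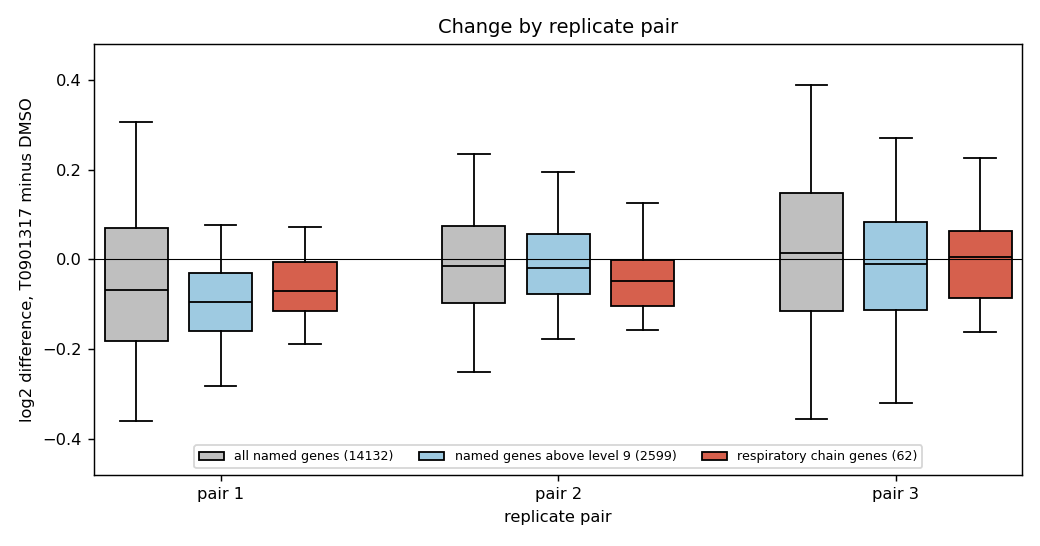
Log2 difference, T0901317 minus DMSO (vertical axis), in each replicate pair (horizontal axis) for all named genes, named genes with a mean level above 9, and the 62 respiratory chain genes. Boxes span the quartiles with the median and whiskers the 5th to 95th percentiles; the medians of the 62 genes are -0.071, -0.048 and 0.0047.

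The DMSO replicates lay apart in most of the 62 genes, as in named genes at large. In 60 of the 62 genes the range over the 3 DMSO arrays exceeded the size of the change with T0901317, the exceptions being NDUFB4 and NDUFA10. The same held for 96.3% of all named genes and 98.0% of those above level 9. A range over single arrays and a mean of paired differences are unlike measures, so this count does not weigh replicates against treatment. The median range over the DMSO arrays was 0.44 for the 62 genes and 0.46 for all named genes, and it exceeded 1 in 3 of the 62. These were UQCRC2 with 1.52, ATP5MJ with 1.31 and COX8A with 1.16, all lowest in replicate 3. The narrowest ranges were those of SDHAF2 with 0.053, NDUFB4 with 0.056 and NDUFA10 with 0.064. These hold for the representative probe sets. A second bright probe set of SDHAF2 had 9.25, 9.24 and 8.70 with DMSO. The dimmer second ones of NDUFB4 and NDUFA10 ran from 6.53 to 6.66 and from 6.59 to 6.77.

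Replicate 3 was the lowest DMSO array for 40 of the 62 genes, against 42.3% of all named genes and 56.8% of those above level 9, and 32 of the 40 were lowest in replicate 3 with T0901317 as well. Among complex I genes it was lowest for 17 of 24. These counts rest on the representative probe sets. The second probe sets of ATP5F1B and NDUFV2 were highest in replicate 3. RNA quality moved with replicate 3. For actin, the 3′ control probe set minus the 5′ one, a gap that widens with degraded or incompletely copied RNA, was 3.50 on the DMSO array and 2.45 on the T0901317 array of replicate 3, and 1.54 to 2.03 on the other 4. Averaged over actin, GAPDH and EF1a it differed by 0.16, -0.077 and -0.59 with T0901317 in pairs 1, 2 and 3. With this average as a covariate, 0 of the 62 genes passed, 1 had an unadjusted p under 0.05 in limma's fit, 49 lay below 0 and all 62 intervals lay within 1.5-fold. The parts of RNA quality and of the cell mixture in the low levels of replicate 3 were not tested.

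**Figure D4:**
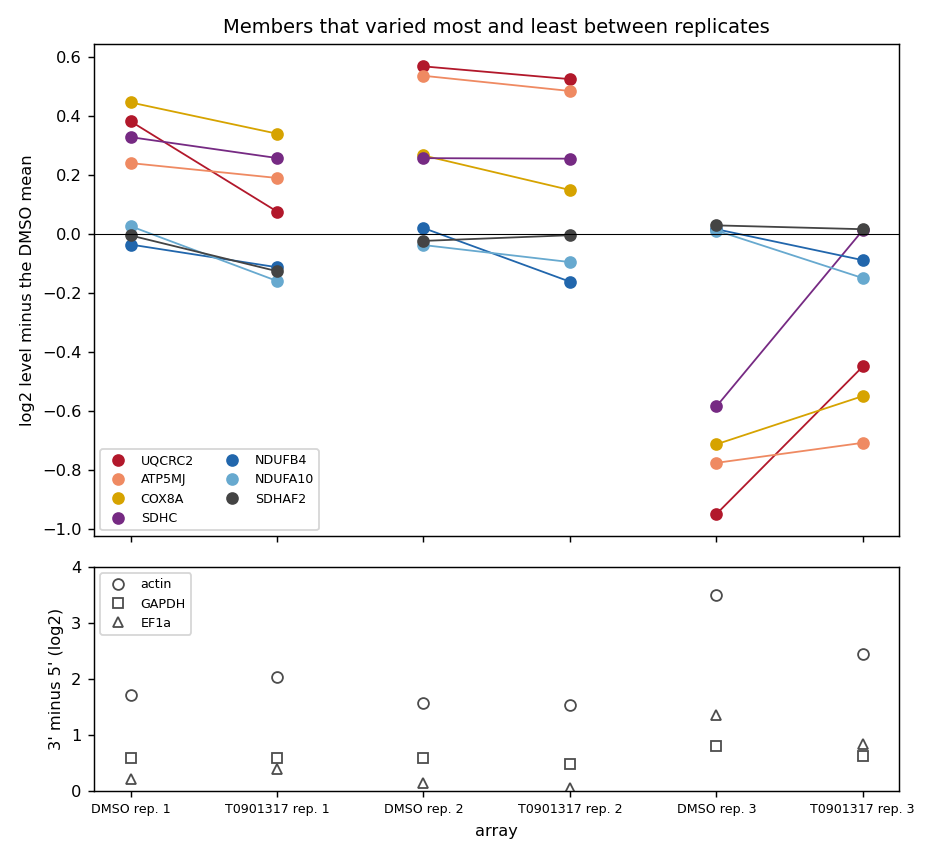
Upper panel, log2 level minus the gene's DMSO mean (vertical axis) on the 6 arrays (horizontal axis), lines joining pairs, for the 3 members with the widest and the 3 with the narrowest range over DMSO arrays and for SDHC. Lower panel, 3′ minus 5′ difference of the control probe sets; UQCRC2, ATP5MJ, COX8A and SDHC are lowest on the DMSO array of replicate 3, where actin is at 3.50.

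Of the 62 genes, 30 had more than 1 probe set. The 40 probe sets not used to represent a gene were mostly dim, with a median level of 6.70 and 4 below the dim-signal reference, and 0 passed the threshold in limma's fit, which called 0.0853% of all probe sets. At an unadjusted p under 0.05 there were 2. Their changes ran from -0.36 to 0.17. In 14 of the 30 genes the probe sets lay on both sides of 0. The lowest values were those of second probe sets of the gamma subunit ATP5F1C and of NDUFB6, at -0.36 ± 0.14 and -0.35 ± 0.16, where the brighter ones had -0.031 and -0.0062. The 8 bright second probe sets, with mean levels above 9, differed from the representative by at most 0.11 in the mean change. In single pairs the gap reached 0.39, for SDHAF2 in pair 3. UQCRC1 had 3 probe sets in all, each with a negative difference in pair 1 and a positive one in pair 3.

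Other mitochondrial genes also gave small values. Of 32 measured assembly factors for the complexes 0 passed in either direction, the median was -0.037, and the extremes were ACAD9 at -0.13 ± 0.095 and the dim NUBPL at 0.094 ± 0.12, both tied to complex I assembly. Of 9 measured enzymes of the citric acid cycle 0 passed and the median was -0.032. Dihydrolipoamide dehydrogenase (DLD) had the highest value there, 0.20 ± 0.20, with pair differences of -0.34, -0.057 and 0.99 and DMSO levels of 8.02, 8.26 and 5.52. It was lowest in replicate 3, as SDHC and UQCRC2 were, and without that pair both of its differences lay below 0. Fumarate hydratase (FH) had the lowest, -0.084 ± 0.11.

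Of 12 measured regulators of mitochondrial gene expression 0 passed the threshold and the median was -0.025. The nuclear factor NRF1, which drives many respiratory genes, had the lowest value, -0.076 ± 0.10, and the coactivator PPARGC1B the highest, 0.086 ± 0.14. PPARGC1A lay below the dim-signal reference, at 2.85 to 3.08 on the DMSO arrays. Of 13 carriers and membrane proteins 0 passed (median -0.025), with IMMT, which shapes cristae, at -0.21 ± 0.13 and the uncoupling protein gene UCP3 at 0.17 ± 0.15. Of 5 antioxidant enzymes 0 passed (median -0.027), with GPX4 at -0.065 ± 0.074 and catalase (CAT) at 0.086 ± 0.14. In limma's fit 0 genes of these lists had an unadjusted p under 0.05.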

How the data were processed

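Expression was measured on 6 one-colour arrays with biotin-labelled RNA. The deposited values are log2 levels, from 1.81 to 14.7, made by the authors with RMA per the submitters' processing notes, which name no version. RMA corrects background, by default normalizes probe values between arrays, and summarises probes, and such values compress differences of dim probe sets. The medians of the deposited arrays ran from 5.54 to 5.71. The quantile normalization used here as an alternative acted on these deposited values. Precision is limited by the 6 arrays. The 99 control probe sets were left out of tests. Gene names came from the platform annotation: 24956 probe sets had 1 symbol, 361 several and 27449 none. The RefSeq gene table held the gene numbers of 61 of the 62 members.

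Treatments were compared with limma 3.58.1 in R 4.3.3. The model held treatment and replicate number, and eBayes let the prior variance follow the level. Two-sided p-values were adjusted over 52766 probe sets (Benjamini-Hochberg, threshold 0.05). The fit was also run on data simulated from limma's own model, with added changes larger than those of the members. This checks the code and not how well the model suits these arrays. Arrays with the same number had correlated deviations from their group means (0.658, 0.813 and 0.830 over probe sets), and the design text states the pairing. It is not stated whether a pair shares an animal, so p-values measure the spread between these cultures. With 3 pairs, the smallest two-sided p of an exact sign-flip test is 0.25. No 2 arrays shared more than 0.327% of values.

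The members and lists were chosen with earlier results of these data known. Values on every array are given for the 2 highest and 2 lowest changes of each complex, core subunits, isoforms, and the 3 widest and 3 narrowest DMSO ranges. The level of 9 that marks bright genes was set after values were seen. COX4I1, COX6A1 and NDUFB8 were named only beside other genes and were left out. COX5B, COX6B2, COX7A2L and ATP5F1A, also in the rule, were not analysed here. Promoter motifs, protein sequences and coordinates were not analysed here. Alternatives covered the block, each replicate, scaling, dim probe sets, the variance trend, the choice of probe set and RNA quality.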

Additional observations from a re-analysis of the deposited data

How the results depend on the processing

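Under 11 alternative settings 0 of the 62 genes passed limma's threshold in either direction, as did 0 genes of the 6 companion lists, and 0 to 3 of the 62 had an unadjusted p under 0.05. Without the replicate block 0 of the 62 genes passed, but that fit called 0 named genes at all, so it says nothing particular about the members. In this balanced design the block cannot move a mean change, so the median is -0.039 in both fits. Without the block 41 of 62 intervals lay within 1.5-fold. Fits with 1 replicate left out or with the RNA quality covariate lean more on limma's borrowed spread than the reported fit. Named genes past the threshold numbered 25 as reported, 0 without the replicate block, 16 to 105 with 1 replicate left out (105 without replicate 3), 15 after quantile normalization, 3 with no trend of variance and 74 with the RNA quality covariate; the cause was not tested. With 1 replicate left out the median change ran from -0.082 to -0.035 in complex I, from -0.061 to -0.025 in complex V and from -0.062 to -0.032 over all 62, each lowest without replicate 3. The median of complex II was 0.034 after quantile normalization and that of complex III 0.035 without replicate 1. Of 319 values of the 29 genes given on every array, 37 had the other sign and 9 moved by more than the SD of their pair differences. Part of the 319 could not move. Leaving out the replicate block, the variance trend or dim probe sets keeps every mean change as it was. The 37 and the 9 came from the other settings alone. With the mean of a gene's probe sets, median DMSO levels were 9.06 over all 62, 9.33 in complex I, 9.88 in complex III, 9.88 in complex IV and 8.86 in complex V, since dim probe sets enter the mean. Without probe sets that can match several transcripts they were 9.86, 10.1 in complex I and 10.2 in complex V. The background correction was not varied, since no scanner files were used here.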
